A study of Mus musculus with 4 samples.

Results

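The CXC chemokines described here are 9 mouse genes, Cxcl1, Cxcl2, Cxcl3, Cxcl9, Cxcl10, Cxcl11, Cxcl12, Cxcl14 and Cxcl16, chosen by symbol from the 38087 genes of the deposited count table. Each symbol stood once in that table. RNA came from bone marrow-derived macrophages of C57BL/6 mice aged 6 to 8 weeks, grown for 5 to 7 days in 30% L929-conditioned medium, a source of the growth factor CSF1. Extracellular vesicles (EVs), small membrane particles that cells release with RNA inside, came from Beas2B, a human lung epithelial line. There were 4 groups, each of 1 library. The miR-93 EV library came from macrophages exposed for 16 h to such vesicles into which, per the labels, miR-93 mimics had been transfected. The miR-17 EV library came from the same exposure to vesicles with miR-17 mimics, and the control EV library from the same exposure to vesicles with scrambled control RNA. The unexposed library came from macrophages whose transfection label is WT, which is taken here to mean that they received no vesicles. Each library pooled RNA of 4 biological replicates, so the spread between cultures was not measured, no test was possible, and all intervals cover counting error only.

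Chemokines are small secreted proteins that steer leukocytes along concentration gradients through G protein-coupled receptors, and the CXC family is named for the single residue between its first pair of cysteines. In the mouse, Cxcl1, Cxcl2 and Cxcl3 carry an ELR motif, act on Cxcr2 and draw neutrophils, and macrophages make them quickly when NF-kappaB is activated. Cxcl9, Cxcl10 and Cxcl11 are interferon-inducible ligands of Cxcr3, a receptor of activated T cells and NK cells. Cxcl12, the ligand of Cxcr4, is made mainly by stromal cells, Cxcl14 is made mainly by epithelial tissues, and Cxcl16 is a transmembrane chemokine of macrophages that binds Cxcr6 and is shed by the proteases Adam10 and Adam17. Transcripts of inflammatory chemokines often carry AU-rich words in the 3′ untranslated region, where decay factors bind.

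The 2 miRNAs loaded in the vesicles belong to one seed family, and their mature sequences are shown because the seed decides which transcripts they can pair with. The sequences are the mouse 5p arms in RefSeq (GRCm38.p6), at chr14:115043684-115043706 on the plus strand for miR-17 and chr5:138165574-138165596 on the minus strand for miR-93, and the labels do not name the arm of the mimics. Capitals mark the seed, bases 2 to 8 from the 5′ end.
mmu-miR-17-5p: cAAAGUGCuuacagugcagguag
mmu-miR-93-5p: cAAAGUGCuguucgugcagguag
Counted from the 5′ end, with the base of miR-17 first, they differ at 4 of 23 positions, by U10G, A11U, C12U and A13C, all outside the seed. The reverse complement of the seed, GCACTTT, was present in the annotated 3′ untranslated region of 0 of the 9 chemokines, taking the longest such region of each gene in GENCODE M21, and 14.8% of 12142 such regions of genes with a mean of at least 20 normalized counts held it. The shifted word CACTTTA, which pairs with bases 2 to 7 and has an A opposite base 1, was present in 1 of the 9, Cxcl12, at base 651 of its region on chromosome 6, and in 13.7% of all regions. The Cxcl12 region, of 5188 bases, was longer than the transcript of 3132 bases used below for its level per kb. It thus belongs to another transcript of the gene, and the word may not be in every transcript. Capitals mark the word in the stretch around it.
Cxcl12: tttggacaattCACTTTAgagtctttaaa
No match says only that these letters are not in these regions.

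The AU-rich word ATTTA was dense in the same regions of the neutrophil chemokines. Cxcl1 held 7 copies, 11.8 per kb, Cxcl3 held 5 copies, 7.75 per kb, and Cxcl2 held 11 copies, 7.36 per kb. The Cxcl2 region, of 1494 bases, was longer than the whole transcript of 1109 bases used below for its level per kb. It thus belongs to another transcript of the gene, and its copies and density may not be those of the transcript used below. Cxcl10 held 3 copies, 3.01 per kb, and Cxcl16 held 2 copies, 1.41 per kb. The median over all such regions was 1.34 per kb, so Cxcl16 stood near it and the 3 neutrophil chemokines well above it. Of the 4 genes with few reads, Cxcl9 held 3 copies, Cxcl12 held 4, Cxcl11 held 1 and Cxcl14 held 0, and 70.8% of all regions held at least 1.

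The start-site regions of the chemokines that macrophages made are shown because these genes share motif matches there. RefSeq windows of 250 bases before to 50 bases after the start site (GRCm38.p6) were matched for 7 of the 9 genes, all but Cxcl11 and Cxcl16. Capitals mark matches to 4 motifs searched on both strands: the kappaB consensus bound by NF-kappaB, TATAAA, the looser word ATAAAA, and an interferon-response word, GAAA followed by any 2 bases and a second GAAA. The stretches run from base -110 to base -1 for Cxcl1 (chr5:90891135-90891244, plus strand), Cxcl2 (chr5:90903789-90903898, plus strand) and Cxcl3 (chr5:90785991-90786100, plus strand), and from base -220 to base -81 for Cxcl10 (chr5:92348970-92349109, minus strand).
Cxcl1: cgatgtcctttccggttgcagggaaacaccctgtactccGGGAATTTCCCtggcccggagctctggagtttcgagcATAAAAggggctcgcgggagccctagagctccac
Cxcl2: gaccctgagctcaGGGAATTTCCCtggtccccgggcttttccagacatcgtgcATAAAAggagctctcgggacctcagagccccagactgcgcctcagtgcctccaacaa
Cxcl3: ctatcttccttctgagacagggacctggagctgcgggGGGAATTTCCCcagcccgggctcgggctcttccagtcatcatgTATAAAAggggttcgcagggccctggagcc
Cxcl10: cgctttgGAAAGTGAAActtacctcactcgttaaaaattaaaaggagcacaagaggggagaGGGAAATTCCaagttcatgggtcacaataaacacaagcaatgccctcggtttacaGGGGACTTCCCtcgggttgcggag
The same 11 bases, a kappaB match on either strand, stood upstream of Cxcl1 from base -71, of Cxcl2 from base -97 and of Cxcl3 from base -73, and this was the longest run that the 250 upstream bases of all 3 shared. Cxcl10 held kappaB matches at 2 places, from bases -159 and -104, and the interferon-response word from base -213. The kappaB consensus was found in 4 of the 7 windows and in 8.46% of all 32851 windows of the same length. The interferon-response word was found in 2 of the 7, Cxcl10 and Cxcl14, and in 3.44% of all windows. TATAAA was found in Cxcl3 and Cxcl9 and in 13.6% of all windows. ATAAAA, which was chosen after seeing these sequences and overlaps TATAAA in Cxcl3, was found in Cxcl1, Cxcl2 and Cxcl3 and in 18.5% of all windows. A match is a description of letters, not a bound site.

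**Figure D1:**
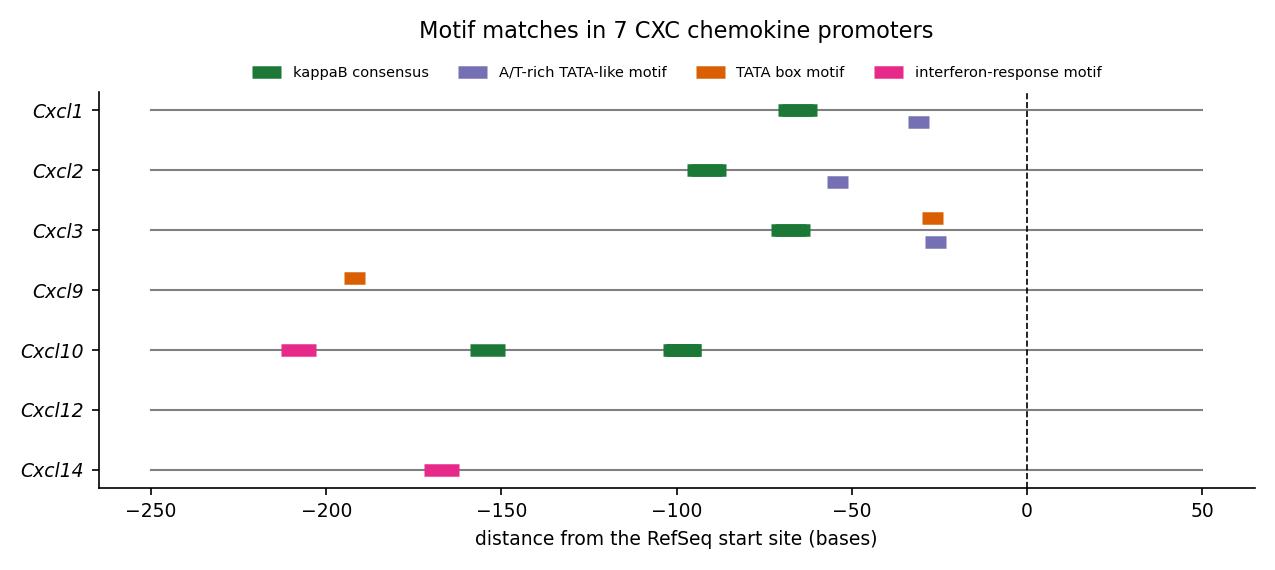
Motif matches in the start-site windows of 7 CXC chemokines, drawn to scale against the distance from the RefSeq start site in bases (negative is upstream, dashed line at the start). Cxcl1, Cxcl2 and Cxcl3 each have a kappaB match between bases -97 and -61 with an A/T-rich word downstream of it, whereas Cxcl10 has kappaB matches at 2 places and an interferon-response word.

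Depth was similar across libraries, with 17815250 to 22607247 reads in genes and 24637 to 26037 genes with at least 1 read. Counts were divided by median-of-ratios size factors of 0.854 to 1.13 and are called normalized counts below. The control EV library stood apart from the other libraries in its median number of aligned bases per read, which was 114 against 96.4 to 103, and it had the fewest reads. Macrophage genes were high in all 4 libraries: Csf1r, the CSF1 receptor, had 25276, 25953 and 31803 normalized counts in the miR-93, miR-17 and control EV libraries and 27251 in the unexposed one. Epithelial markers summed to 9.5 to 14.2 normalized counts and megakaryocyte and platelet markers to 13.7 to 19.9, so the markers gave no large signal of either cell type. In pooled RNA, fewer cells making a chemokine and less chemokine RNA per cell cannot be told apart.

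Averaged over the libraries, 5 of the 9 chemokines reached 20 normalized counts: Cxcl16, Cxcl2, Cxcl3, Cxcl10 and Cxcl1. Per kb of transcript, averaged over libraries, the normalized count was 1059 for Cxcl16, 779 for Cxcl2, 225 for Cxcl3, 182 for Cxcl10 and 81.4 for Cxcl1. It was 4.20 for Cxcl14, 0.80 for Cxcl12, 0.59 for Cxcl9 and 0.42 for Cxcl11. Among these 9 genes, the RNA was therefore mostly that of the transmembrane chemokine Cxcl16 and the neutrophil chemokine Cxcl2. The order of the lowest 4 rested on 10 reads or fewer in each library. Pf4, a CXC chemokine outside the 9 that is described below, stood higher than any of them, at 4202 per kb. Cxcl16 took 62.6% of the summed reads of the 9 genes in the miR-93 EV library, 62.0% in the miR-17 EV library, 73.4% in the control EV library and 71.3% in the unexposed library.

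Cxcl3 (ENSMUSG00000029379, chr5:90786103-90788086, plus strand, mm10), a neutrophil chemokine, had the widest range between libraries of the 5 chemokines with a mean of at least 20 normalized counts. It had 296 normalized counts in the miR-93 EV library (95% exact Poisson interval 265 to 330), 273 in the miR-17 EV library (244 to 306), 130.0 in the control EV library (107 to 157) and 216 in the unexposed library (187 to 248). The control EV library was the lowest, both mimic EV libraries were the highest, and the control EV interval overlapped none of the other 3. The ratio was 2.28 for miR-93 EV over control EV (95% exact conditional interval 1.83 to 2.85) and 2.10 for miR-17 EV over control EV (1.69 to 2.64). Against unexposed macrophages the ratios were smaller, 1.37 for miR-93 EV (1.15 to 1.64) and 1.27 for miR-17 EV (1.06 to 1.52), whereas control EV was below unexposed at 0.602 (0.473 to 0.762). Part of the difference between the mimic EV libraries and the control EV library thus lay in a control EV level below the unexposed one. With average coverage per base in place of reads, which takes up the longer reads of the control EV library, the log2 ratio over control EV was 1.25 for miR-93 EV and 1.13 for miR-17 EV, against 1.18 and 1.07 from reads.

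Cxcl2 (ENSMUSG00000058427, chr5:90903899-90905909, plus strand), known as MIP-2, had the second highest level of the 9 per kb. It had 983 normalized counts in the miR-93 EV library (926 to 1043), 1023 in the miR-17 EV library (965 to 1084), 788 in the control EV library (730 to 850) and 662 in the unexposed library (611 to 716). All 3 vesicle libraries were above the unexposed library, with the mimic libraries above the control EV library, and only the mimic libraries overlapped each other. Over unexposed the ratio was 1.49 for miR-93 EV (1.35 to 1.64), 1.55 for miR-17 EV (1.40 to 1.71) and 1.19 for control EV (1.07 to 1.33). Over control EV it was 1.25 for miR-93 EV (1.13 to 1.38) and 1.30 for miR-17 EV (1.18 to 1.43).

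Cxcl1 (ENSMUSG00000029380, chr5:90891241-90893115, plus strand), known as KC in the mouse, had the fewest reads of the 3 neutrophil chemokines. It had 67.0 normalized counts in the miR-93 EV library (52.6 to 84.1), 89.6 in the miR-17 EV library (73.0 to 109), 93.7 in the control EV library (74.3 to 117) and 60.1 in the unexposed library (45.5 to 77.8). The miR-17 EV and control EV libraries were high and the miR-93 EV and unexposed libraries low, with overlapping intervals throughout. Over unexposed the ratio was 1.12 for miR-93 EV (0.779 to 1.60), 1.49 for miR-17 EV (1.07 to 2.10) and 1.56 for control EV (1.10 to 2.23). The order of the vesicle libraries was thus not that of Cxcl2 or Cxcl3, and Cxcl1 was the only one of the 3 with a ratio of miR-93 EV over control EV below 1, at 0.715 (0.514 to 0.993).

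The 3 neutrophil chemokines share sequence, and how reads matching several genes were counted is not given in the sources used here, so reads could have been split between them. Within a library, where no scaling enters, Cxcl3 had 30.1% as many reads as Cxcl2 in the miR-93 EV library, 26.7% in the miR-17 EV library, 16.5% in the control EV library and 32.6% in the unexposed library. The control EV library again stood apart. Cxcl1 had 6.81%, 8.76% and 11.9% as many reads as Cxcl2 in the miR-93, miR-17 and control EV libraries and 9.08% in the unexposed library. Genes with the GC content of the 5 detected chemokines, 43.3% to 47.4%, had a median log2 ratio of -0.07 for each mimic EV library over control EV and 0.06 for control EV over unexposed, opposite in sign to the log2 ratios of Cxcl3. These medians had the sign of the log2 ratios of Cxcl16, which were larger, at -0.41 for miR-93 EV over control EV, -0.39 for miR-17 EV over control EV and 0.33 for control EV over unexposed.

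**Figure D2:**
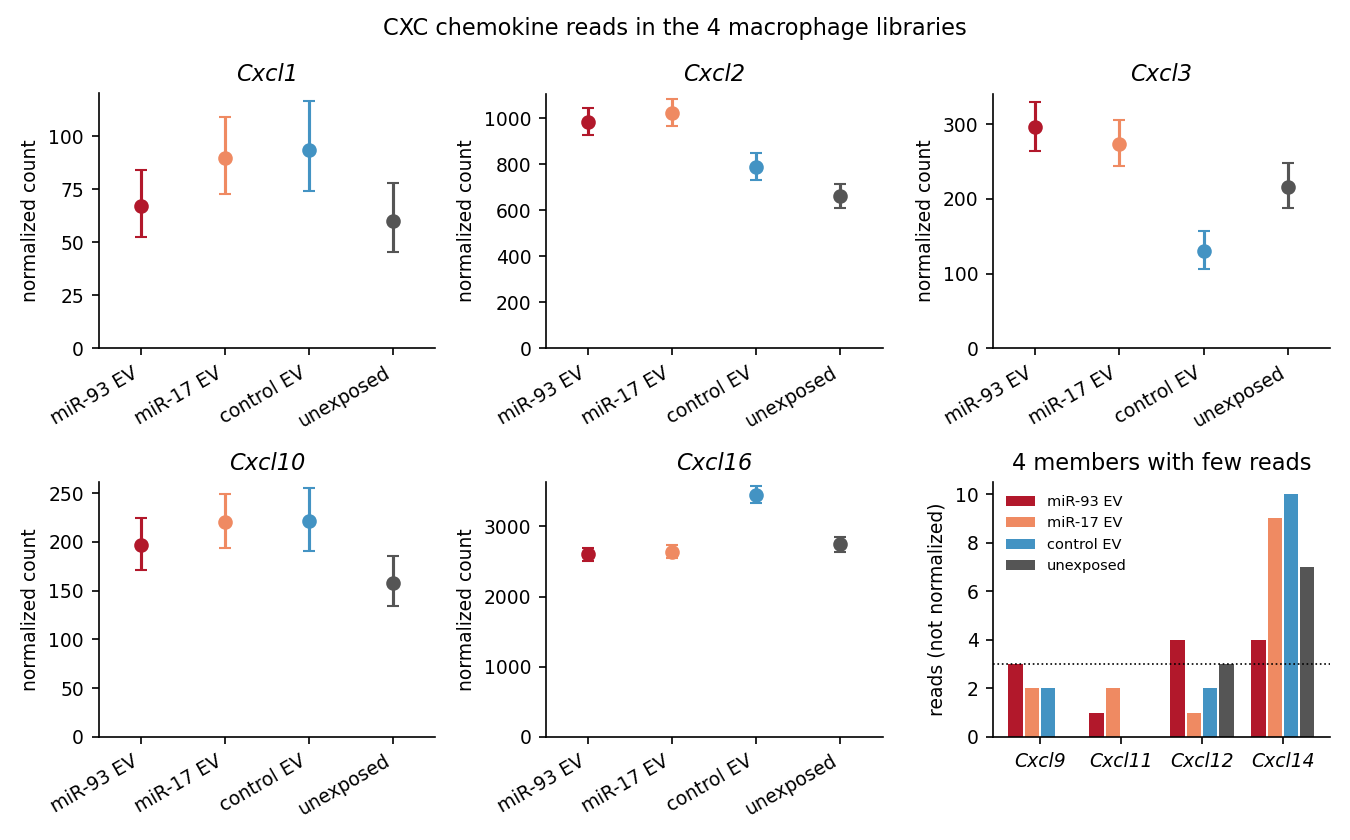
Levels of the 9 CXC chemokines in each library: normalized counts with 95% exact Poisson intervals for the 5 genes with a mean of at least 20, and raw reads as bars for the other 4 (dotted line at 3 reads). Cxcl3 is lowest in the control EV library at 130.0, Cxcl16 is highest there at 3450.2, and Cxcl2 is lowest in the unexposed library at 662.

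Cxcl10 (ENSMUSG00000034855, chr5:92346638-92348889, minus strand), the interferon-inducible chemokine also called IP-10, was the only Cxcr3 ligand with more than a few reads. It had 196 normalized counts in the miR-93 EV library (171 to 224), 220.1 in the miR-17 EV library (194 to 249), 221 in the control EV library (191 to 255) and 158 in the unexposed library (134 to 185). The 3 vesicle libraries were higher than the unexposed library, and their intervals overlapped one another. Over unexposed the ratio was 1.24 for miR-93 EV (1.005 to 1.54), 1.39 for miR-17 EV (1.13 to 1.72) and 1.40 for control EV (1.12 to 1.75), and among the vesicle libraries it was 0.887 to 0.994 against control EV. The gene lies inside the span of Art3, an ADP-ribosyltransferase gene on the opposite strand, at chr5:92331827-92414628. Art3 was listed with 232, 258 and 199 reads in the miR-93, miR-17 and control EV libraries and 152 in the unexposed one, beside 217, 248 and 189 reads of Cxcl10 in those vesicle libraries and 150 in the unexposed one. The difference was 2 to 15 reads in every library. Whether strand was used in counting is not given, and without strand reads of Cxcl10 and Art3 cannot be told apart.

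The other Cxcr3 ligands had almost no reads. Cxcl9 (ENSMUSG00000029417, chr5:92321331-92328079, minus strand), also called MIG, had 3 reads in the miR-93 EV library, 2 in each of the miR-17 EV and control EV libraries and 0 in the unexposed library. Cxcl11 (ENSMUSG00000060183, chr5:92359544-92365485, minus strand), also called I-TAC, had 1 read in the miR-93 EV library, 2 in the miR-17 EV library and 0 in each of the control EV and unexposed libraries. Cxcl11 is annotated as a polymorphic pseudogene in the deposited table, and C57BL/6 mice are known to carry a null allele. All these values lay at or under a floor of 3 reads, which is 2.66 to 3.51 normalized counts depending on the library, so no ratio is given and a difference was not detectable at this depth.

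Cxcl12 (ENSMUSG00000061353, chr6:117168535-117181367, plus strand), the stromal ligand of Cxcr4, had 4, 1 and 2 reads in the miR-93, miR-17 and control EV libraries and 3 in the unexposed library. Cxcl14 (ENSMUSG00000021508, chr13:56288647-56296551, minus strand), an epithelial chemokine, had 4, 9 and 10 reads in the miR-93, miR-17 and control EV libraries and 7 in the unexposed library. Neither gene reached 20 normalized counts in any library. The widest contrast of Cxcl14, miR-93 EV over control EV, had a ratio of 0.309 with an interval of 0.0708 to 1.07, which includes 1.

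Cxcl16 (ENSMUSG00000018920, chr11:70453983-70459984, minus strand), the membrane-bound ligand of Cxcr6 and a scavenger receptor for oxidized lipoprotein, was the most abundant of the 9. It had 2599.9 normalized counts in the miR-93 EV library (2506 to 2697), 2637 in the miR-17 EV library (2543 to 2733), 3450.2 in the control EV library (3327 to 3577) and 2744 in the unexposed library (2639.8 to 2852). The control EV library alone was high, and the other 3 overlapped one another. Control EV over unexposed was 1.26 (1.19 to 1.33), miR-93 EV over control EV was 0.754 (0.716 to 0.794) and miR-17 EV over control EV was 0.764 (0.726 to 0.804). Over unexposed the mimic libraries stood at 0.947 (0.898 to 0.999) for miR-93 EV and 0.961 (0.911 to 1.01) for miR-17 EV. In the control EV library, therefore, Cxcl16 was high where Cxcl3 was low. The sum of the macrophage markers was also highest there: the 8 markers summed to 627531 and 615473 normalized counts in the miR-93 and miR-17 EV libraries, 748226 in the control EV library and 658545 in the unexposed library. Most of that sum was the lysozyme gene Lyz2, with 596249 in the control EV library and 512117 in the unexposed library. Of the 8 markers, 5 were higher in control EV than in unexposed, but for Adgre1 the interval included 1. The ratio of control EV over unexposed was 1.44 for the lipopolysaccharide coreceptor Cd14 (1.40 to 1.49), 1.17 for Csf1r (1.15 to 1.19) and 1.16 for Lyz2 (1.16 to 1.17). For Fcgr1 the ratio was 1.13 (1.07 to 1.18), and for Adgre1 it was 1.01 (0.997 to 1.02). It was below 1 for Cd68 at 0.919 (0.900 to 0.938), Mertk at 0.850 (0.797 to 0.906) and Itgam at 0.945 (0.928 to 0.963). Their part in the Cxcl16 result was not tested. Cxcl16 shares 552 bases of its span with Zmynd15 on the opposite strand, which was listed with 684, 628 and 662 reads in the miR-93, miR-17 and control EV libraries and 621 in the unexposed library.

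A gene was called when its log2 ratio of normalized counts plus 1 was at least 1 either way, the pair's mean was at least 20 normalized counts and the counting interval of the ratio excluded 1. In miR-93 EV over control EV, 1 of the 5 chemokines that could be called was called, Cxcl3, which was higher, where 1.46% of 15361 genes were called and 0.996% were called higher. In miR-17 EV over control EV it was again 1 of 5, Cxcl3, higher, where 1.51% of 15362 genes were called and 1.05% were called higher. With 5 genes, 1 call is too few to set a share against that background. Both ratios share the control EV library, so the second is not separate evidence of the first. The log2 ratio of Cxcl3 was 1.18 for miR-93 EV and 1.07 for miR-17 EV, both near the threshold.

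Over unexposed macrophages, 0 of the 5 were called in miR-93 EV, where 0.539% of genes were called, 0 of 5 in miR-17 EV, where 0.474% were called, and 0 of 5 in control EV, where 1.28% were called. In each of these 3 pairs 4 of the 5 had a higher count, with a median log2 ratio of 0.31 in miR-93 EV, 0.47 in miR-17 EV and 0.33 in control EV. Among the higher counts, that of Cxcl1 in miR-93 EV had an interval of the ratio that included 1 (0.779 to 1.60). With 5 genes, such a split is too small to set against the share over all genes. Over all genes tested the medians were -0.01 in miR-93 EV, -0.01 in miR-17 EV and 0.00 in control EV, and 48.9%, 48.1% and 50.1% of genes were higher in those libraries. These 3 pairs share the unexposed library. The chemokine that was lower was Cxcl16 in both mimic libraries and Cxcl3 in the control EV library.

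At a lower threshold of 1.5-fold, Cxcl2 passed as higher in miR-17 EV over unexposed, where 1.75% of genes passed as higher. In control EV over unexposed, Cxcl1 passed as higher, where 2.31% of genes did, and Cxcl3 passed as lower, where 3.07% did. In miR-93 EV over unexposed 0 of the 5 passed, where 2.81% of genes did so in either direction. Cxcl2 missed it there by a small margin, with a log2 ratio of 0.57.

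The mimic EV libraries were also set against each other. In miR-93 EV over miR-17 EV 0 of the 5 were called, where 0.265% of genes were called, and 0 of the 5 intervals excluded 1. The ratios were 1.08 for Cxcl3 (0.924 to 1.27), 0.986 for Cxcl16 (0.937 to 1.04), 0.961 for Cxcl2 (0.884 to 1.05), 0.893 for Cxcl10 (0.741 to 1.08) and 0.747 for Cxcl1 (0.546 to 1.02). For Cxcl16 the interval left room for a difference of a few percent, and for Cxcl1 for a level as low as 0.546 of that in the miR-17 EV library.

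**Figure D3:**
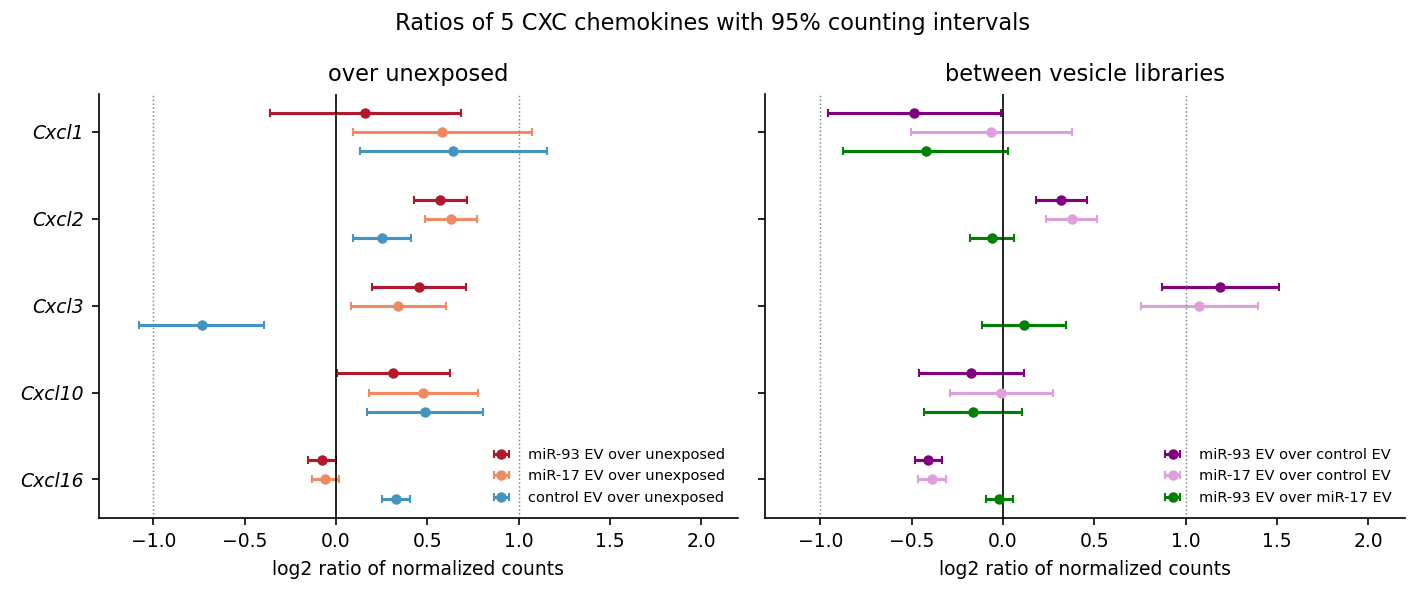
Log2 ratios of normalized counts of the 5 detected CXC chemokines with 95% counting intervals, for the 3 pairs over unexposed (left) and the 3 pairs between vesicle libraries (right); dotted lines mark 2-fold. Cxcl3 is the one gene past a dotted line, in both mimic EV libraries over control EV, and each green interval, miR-93 EV over miR-17 EV, includes 0.

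The neutrophil chemokines lie in one cluster on chromosome 5 with other CXC genes that are no part of the 9, and neighbours did not always follow one another. In control EV over unexposed, the neighbours Ppbp, Pf4 and Cxcl3 were all lower. Cxcl1 and Cxcl2, which lie together further along, were both higher in that pair. In miR-17 EV over unexposed, Pf4 was lower at 0.766 (0.725 to 0.810) and Cxcl3 higher at 1.27 (1.06 to 1.52). Pf4, the platelet chemokine Cxcl4, which macrophages also make, had 2658 normalized counts in the miR-93 EV library, 2134 in the miR-17 EV library, 2306 in the control EV library and 2785 in the unexposed library. The gene next to it, Ppbp, a platelet-derived neutrophil chemokine, had 24.4, 27.5 and 10.5 normalized counts in the miR-93, miR-17 and control EV libraries and 34.8 in the unexposed library. Ppbp was called lower in control EV over unexposed, at a ratio of 0.303 (0.128 to 0.647), where 0.791% of genes were called lower. Like Cxcl3 it was lowest in the control EV library, from 9 reads there. Cxcl5, another Cxcr2 ligand, had 14, 16 and 6 reads in the miR-93, miR-17 and control EV libraries and 8 in the unexposed library, too few to call. Cxcl15, which lies between Cxcl3 and Cxcl1 and is made in lung epithelium, had 0 or 1 read in each library. Of the 6 CXC chemokines outside the 9, Pf4 and Ppbp were the 2 with a mean of at least 20.

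**Figure D4:**
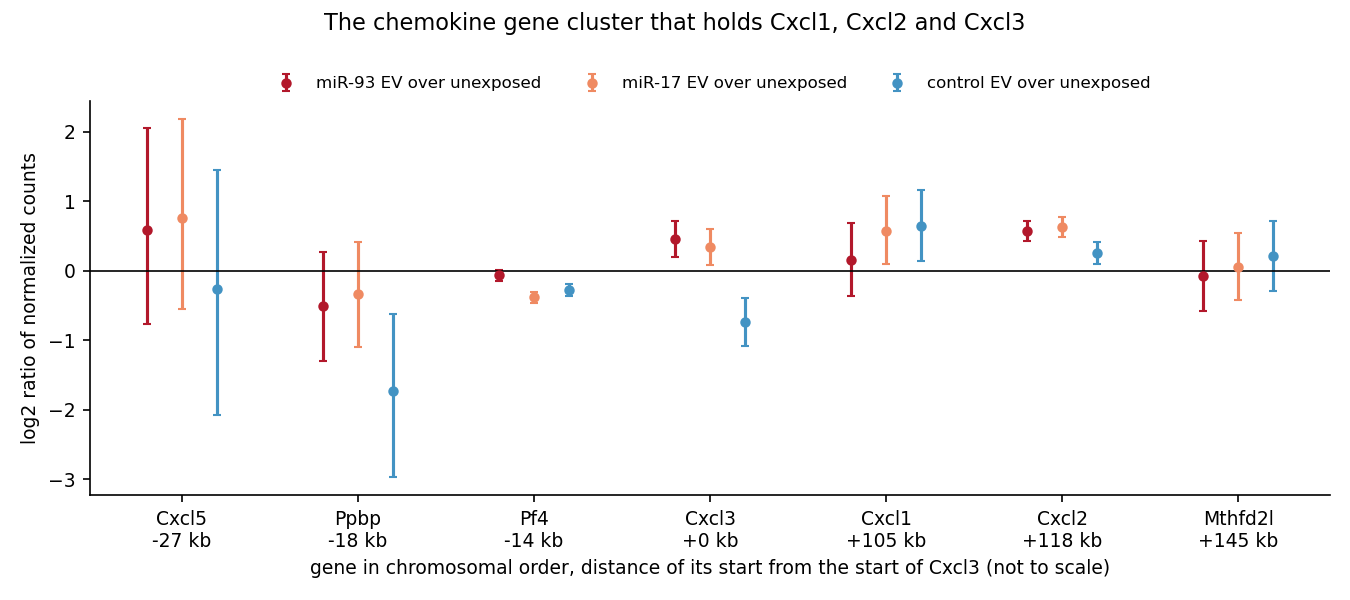
Log2 ratios over unexposed, with 95% counting intervals, of the genes around Cxcl3, Cxcl1 and Cxcl2, in chromosomal order with the distance of each start from that of Cxcl3 in kb (spacing not to scale). Control EV (blue) is below 0 for Ppbp, Pf4 and Cxcl3 and above 0 for Cxcl1 and Cxcl2, with intervals that exclude 0. Cxcl1 starts 105 kb from the start of Cxcl3.

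Receptors for these ligands were mostly scarce in the macrophages. Of 8 receptor genes, Cxcr4 and Cxcr3 had a mean of at least 20. Of these, 0 were called in any pair, where 0.265% to 1.51% of all genes tested were called. They are too few genes to set 0 calls against that share. Cxcr4, the receptor of Cxcl12, had 512 normalized counts in the miR-93 EV library, 466 in the miR-17 EV library, 610.2 in the control EV library and 530.1 in the unexposed library. Cxcr3 had 48.0, 37.3 and 57.4 in the miR-93, miR-17 and control EV libraries and 45.3 in the unexposed library. Both were highest in the control EV library. Cxcr2, the receptor of the neutrophil chemokines, had 1 to 4 reads, and Cxcr6, the receptor of Cxcl16, had 4 to 11.

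RNA levels of genes of NF-kappaB signalling were set beside those of the neutrophil chemokines. The part of these genes in the Cxcl3 result was not tested. All 14 genes of a list of NF-kappaB inputs, subunits and feedback inhibitors had a mean of at least 20. The list mixes activators with inhibitors, so its medians and direction counts cannot show or deny a shared pattern. RNA levels also do not measure the activity of NF-kappaB. Of the 14, 0 were called in any pair, where 0.265% to 1.51% of all genes tested were called. A list of 14 is too short to set 0 calls against that share. Over control EV, 4 of the 14 were higher in miR-93 EV, where 46.6% of all genes tested were, and 4 of 14 in miR-17 EV, where 47.1% were, and the other 10 were lower in each, with a median log2 ratio of -0.15 in miR-93 EV and -0.08 in miR-17 EV. Over unexposed, 3 of 14 were higher in miR-93 EV, 3 in miR-17 EV and 6 in control EV, where 48.9%, 48.1% and 50.1% of all genes were higher in those libraries, with medians of -0.05 in miR-93 EV, -0.04 in miR-17 EV and -0.04 in control EV. The medians of all genes were -0.02 over control EV for each mimic and -0.01 to 0.00 over unexposed.

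Of that list, Tlr2, Tlr4, Nfkbie and Nfkbiz had the largest log2 ratios. Tlr4, the lipopolysaccharide receptor, had 2106 and 1938 normalized counts in the miR-93 and miR-17 EV libraries, 1426 in the control EV library and 1743 in the unexposed library. It was lowest in the control EV library, as was Cxcl3. Tlr2, the receptor for bacterial lipopeptides, had 3637, 3448 and 5203 in the miR-93, miR-17 and control EV libraries and 3674 in the unexposed library, and was highest there, as was Cxcl16. Nfkbie, an inhibitor of NF-kappaB, had log2 ratios over unexposed of -0.43 in miR-93 EV, -0.36 in miR-17 EV and -0.22 in control EV. Nfkbiz, a nuclear cofactor of NF-kappaB, had log2 ratios over unexposed of -0.34, -0.27 and -0.10 in those libraries.

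Factors that bind AU-rich words held 0 calls among 9 in any pair, where 0.265% to 1.51% of all genes tested were called. A list of 9 is too short to set 0 calls against that share. The medians were -0.02 over control EV in each mimic EV library. Zfp36, tristetraprolin, which speeds the decay of such transcripts, had 1298, 1579.6 and 1402 normalized counts in the miR-93, miR-17 and control EV libraries and 1496 in the unexposed library. Its relative Zfp36l1 had log2 ratios over unexposed of -0.31 in miR-93 EV, -0.36 in miR-17 EV and -0.03 in control EV. Zfp36l2 had a log2 ratio of 0.28 in control EV over unexposed. Tia1, a translational silencer, had log2 ratios over unexposed of 0.34 in miR-93 EV, 0.45 in miR-17 EV and 0.17 in control EV, in the order of Cxcl2.

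Proteases that cut or shed chemokines were the one list of more than 2 detected genes that all lay in one direction over control EV. Over control EV 0 of them were called, where 1.46% of all genes tested were called in miR-93 EV and 1.51% in miR-17 EV. The list is too short to set 0 calls against those shares. All 6 of the 8 with a mean of at least 20 were higher in each mimic EV library than in the control EV library, with medians of 0.35 in miR-93 EV and 0.41 in miR-17 EV, where 46.6% and 47.1% of all genes tested were higher. Control EV over unexposed had 5 of 6 lower, with a median of -0.30. Mmp9, a gelatinase known to trim CXC chemokines in humans, had 349 and 312 normalized counts in the miR-93 and miR-17 EV libraries, 221 in the control EV library and 414 in the unexposed library. Mmp8, the neutrophil collagenase, had 2181 and 2217 in the miR-93 and miR-17 EV libraries, 1478 in the control EV library and 2537 in the unexposed library. Both were lowest in the control EV library, and unlike Cxcl3 both were highest in the unexposed library. Adam10, which sheds Cxcl16, had log2 ratios over control EV of 0.36 in miR-93 EV and 0.44 in miR-17 EV, and Mmp12, the macrophage elastase, had 0.32 and 0.38.

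**Figure D5:**
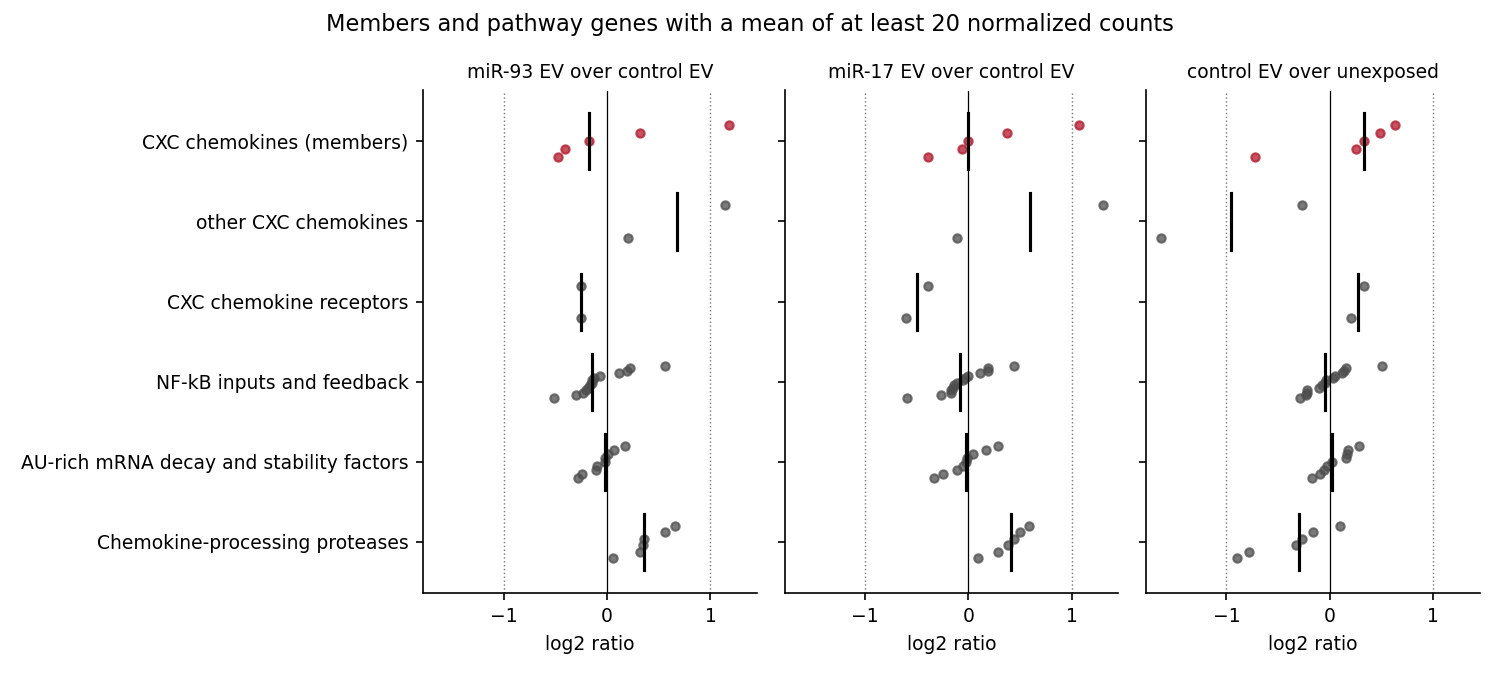
Log2 ratios of the 5 detected CXC chemokines (red) and of listed pathway genes with a mean of at least 20 normalized counts (grey), 1 point per gene, in 3 pairs; black bars are list medians and dotted lines mark 2-fold. All 6 proteases lie above 0 in both mimic EV libraries over control EV, where the chemokines range on both sides of 0.

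Markers of other cells were checked because neutrophils and their precursors can also make Cxcl2 and Cxcl3. The 6 neutrophil markers summed to 1108 normalized counts in the miR-93 EV library, 1139.5 in the miR-17 EV library, 720.3 in the control EV library and 997 in the unexposed library, lowest in the control EV library and highest in the mimic EV libraries, as was Cxcl3. Nearly all of this came from S100a8 and Lcn2, which macrophages also express. S100a8 had 664 and 666 normalized counts in the miR-93 and miR-17 EV libraries, 449.7 in the control EV library and 576 in the unexposed library. Lcn2 had 438 and 469 in the miR-93 and miR-17 EV libraries, 259 in the control EV library and 413 in the unexposed library. The other markers of the list were close to absent: S100a9 had 2 to 4 reads, Mpo 1 to 7, and Ly6g and Elane 0 or 1. Mmp8, the neutrophil collagenase described above, was not on this list. It was lowest in the control EV library and highest in the unexposed library. The part of neutrophils and their precursors in the Cxcl3 result was not tested.

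Some markers of further cell types were also lowest in the control EV library, as was Cxcl3, and others were not. The 7 fibroblast and stromal markers, from cells that make Cxcl12, summed to 109.5 and 107 in the miR-93 and miR-17 EV libraries, 86.7 in the control EV library and 127.5 in the unexposed library. One of them, the collagen gene Col1a1, was also lowest in the control EV library: it had 32.6 and 26.6 normalized counts in the miR-93 and miR-17 EV libraries, 15.2 in the control EV library and 33.7 in the unexposed library. It had 13 reads in the control EV library. Its ratio was 0.451 for control EV over unexposed (0.217 to 0.884), called lower, where 0.791% of genes were. It was 2.14 for miR-93 EV over control EV (1.11 to 4.40), called higher, where 0.996% of genes were, and 1.75 for miR-17 EV over control EV (0.885 to 3.65), not called. Col1a2, the other stromal marker with a mean of at least 20, was not lowest in the control EV library. It had 29.0 and 42.6 normalized counts in the miR-93 and miR-17 EV libraries, 39.8 in control EV and 43.2 in unexposed. Its ratio of miR-93 EV over control EV was 0.727 (0.435 to 1.22). The 6 dendritic cell markers summed to 275 and 288 in the miR-93 and miR-17 EV libraries, 337 in the control EV library and 316 in the unexposed library, highest in control EV. Among them Fscn1, an actin-bundling gene of mature dendritic cells, was called lower in control EV over unexposed, at 0.445 (0.276 to 0.698), and its ratio over control EV was 1.82 for miR-93 EV (1.15 to 2.94) and 1.62 for miR-17 EV (1.02 to 2.64). The 5 T and NK cell markers summed to 2453 and 2205 in the miR-93 and miR-17 EV libraries, 1656 in the control EV library and 2042 in the unexposed library, the order of Cxcl3. Nearly all of that was Il7r, the interleukin 7 receptor, and Cd3e, Cd3g and Nkg7 had 0 to 4 reads. In the same order of libraries, endothelial markers summed to 307, 277, 293 and 351, B cell markers to 64.3, 63.9, 60.9 and 66.4, and mast cell markers to 89.6, 67.4, 59.7 and 61.1. The part of these cell types in the Cxcl3 result was not tested.

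Some genes outside the lists resembled the neutrophil chemokines more closely than these resembled each other. Likeness was the Euclidean distance between centred log2 values over the 4 libraries, among 9621 genes, and was computed for the 2 chemokines with a mean of at least 100 and a highest level at least 1.5 times the lowest. The nearest genes to Cxcl3 were Nabp1 at 0.097, Dio2 at 0.155 and Dnajc2 at 0.158. Nabp1 had 769 and 766 normalized counts in the miR-93 and miR-17 EV libraries, 337 in the control EV library and 559.6 in the unexposed library. The nearest genes to Cxcl2 were Gas5 at 0.053, Ndufa12 at 0.071 and Clk4 at 0.074, whereas Cxcl2 and Cxcl3 lay 0.76 apart. With 4 libraries and many genes, close matches can be found for any pattern.

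The authors' deposited table of fold changes held 5721 genes and 3 of the 9 chemokines, Cxcl9, Cxcl12 and Cxcl14, each with 10 reads or fewer in every library. For Cxcl14 the authors' deposited table gave a log2 fold change of -0.52 for control EV over unexposed and 1.10 for miR-17 EV over control EV. The deposited counts gave ratios in the other direction, 1.59 (0.546 to 4.91) and 0.682 (0.245 to 1.87), with intervals that include 1. Cxcl3 was not in that table. In the authors' deposited table of centred log2 values, it was 0.95 higher in miR-93 EV and 0.96 higher in miR-17 EV than in control EV, just short of a 2-fold difference.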

How the data were processed

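The deposited table gave whole-number read counts per gene, not normalized, per the file headers, with average coverage per base (a signal) and GC percent. The authors' deposited log2 values were centred on each gene's median over the libraries, and their deposited log2 fold changes were differences of these. The submitters' processing notes name mm10 and DESeq. For the aligner, the annotation and the use of strand, nothing is given in the sources used here. The labels' protocols name MiRNeasy Mini columns for RNA and an Ion Torrent total RNA kit for libraries.

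Counts were scaled by median-of-ratios size factors over all genes with reads in every library. Exact Clopper-Pearson intervals of ratios and Poisson intervals of levels (95%) cover counting error, and as no source names molecular identifiers, several reads can come from 1 molecule. Calls and printed log2 ratios used a pseudocount of 1, and linear ratios and their intervals used none. The members and lists were chosen with earlier results of these data known. Named genes were, per pathway list, the 4 with the largest log2 ratio in any pair and any that were called; called marker genes are named too, and 1 pathway list is not reported here. Lengths came from the longest principal GENCODE M21 transcript. Alternatives were total-read and TMM scaling (edgeR 4.0.16 on R 4.3.3), the authors' values, a minimum mean of 100 or none, a pseudocount of 5, a 1.5-fold threshold and, added after seeing the data, average coverage. Python 3.11.15, pandas 2.3.3 and scipy 1.17.1 were used.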

Additional observations from a re-analysis of the deposited data

How the results depend on the processing

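The number of CXC chemokines called changed under 2 settings. With a 1.5-fold threshold it was 1 in place of 0 in miR-17 EV over unexposed, and 2 in place of 0 in control EV over unexposed, by the threshold's own construction. With the authors' log2 values it was 0 in place of 1 in both miR-17 EV and miR-93 EV over control EV, where Cxcl3 stood at 0.96 and 0.95, and why these values differ from the counts was not tested. For the authors' values and for average coverage, calls used the log2 ratio and the minimum mean only, without the counting interval. With total-read scaling, TMM scaling, a pseudocount of 5, a minimum mean of 100, no minimum and average coverage, the number of calls was as reported in all 6 pairs. Of 174 log2 ratios of single chemokines under the alternatives, 2 left the counting interval of the reported value, both with the authors' values: Cxcl16 was 0.24 in control EV over unexposed and Cxcl2 was 0.18 in miR-93 EV over control EV. Of 36 median log2 ratios of the chemokines, 0 moved by more than the median width of those intervals to either side. A minimum mean of 100, which leaves out Cxcl1, gave a median of 0.07 in place of -0.17 in miR-93 EV over control EV and of 0.18 in place of -0.01 in miR-17 EV over control EV. A median with no minimum was not run, since Cxcl9 and Cxcl11 lie at or under 3 reads. Cxcl3 ranged from 0.95 to 1.25 in miR-93 EV over control EV and from 0.96 to 1.13 in miR-17 EV over control EV. No paired analysis was possible because each group had 1 library, and for the same reason no replicate could be left out. Depth limits Cxcl9, Cxcl11, Cxcl12 and Cxcl14, at 10 reads or fewer in each library.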
